A study of Arabidopsis thaliana with 11 samples.

Results

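Transcription factor genes known by family symbol (WRKY, bZIP, Aux/IAA, bHLH, TCP and NAC) were followed in shoots of Arabidopsis thaliana seedlings carrying a transgene for one of 2 other transcription factors. The members were the plant probe sets whose symbol in the platform annotation is a family stem followed by a number. The rule named 15 stems, and 6 of them had a member on the array under such a symbol. This gave 32 genes among 19371 plant probe sets: 11 bZIP, 9 WRKY, 6 Aux/IAA, 3 bHLH, 2 TCP and 1 NAC gene. Each was read by 1 probe set, and all 32 matched a RefSeq gene of the same symbol. The remaining 9 stems, MYB and ERF among them, had no member. Only 11598 of the 19371 plant probe sets carried a gene name, and the rule could find members only among those. Genes of any stem may thus be on the array without a symbol. The symbol rule used no measured value, though it was set with earlier results of these data known.

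The transgenic shoots carried 35S::CBF4 (lines 10 and 19) or 35S::AtNF-YB1 (lines 3 and 6), and the wild type was Col-0. The 35S promoter drives expression in most tissues, so neither transgene was limited to the cells that normally use the gene. Each line gave 2 arrays and wild type gave 3, 11 in all, and the RNA of each came from about 24 pooled seedlings, 14 days old and kept in constant light (24 h) on plates. The series text also gives another number for the second CBF4 line, and the number in the titles is used here. CBF4 is a DREB1-type activator of genes induced by cold and drought, and AtNF-YB1 contributes the B subunit to NF-Y, the trimeric factor that binds CCAAT boxes.

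The families act at different points of plant transcription. WRKY proteins bind the W-box of defence and senescence genes, and bZIP proteins bind as dimers to ACGT-containing sites and serve stress, nutrient and hormone responses. Aux/IAA proteins bind no DNA of their own: they hold auxin response factors inactive until auxin triggers their degradation. Basic helix-loop-helix (bHLH), TCP and NAC factors include regulators of iron uptake, of leaf growth and of stress responses. Because these genes encode regulators, a second layer of change behind an overexpressed factor would be looked for among them.

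The 8 leaf photosynthesis markers measured had a summed intensity of 11664 to 14252 units in CBF4 shoots, 11087 to 16719 in AtNF-YB1 shoots and 10039 to 16406 in wild type shoots. Of the root markers 2 were measured: EXPA7, a root hair expansin, gave at most 7.085 intensity units on any array, whereas PYK10, a β-glucosidase abundant in roots, gave 184 to 396 units in CBF4, 191 to 468 in AtNF-YB1 and 220 to 590 in wild type. The array medians of the deposited intensities ran from 9.235 to 22.7 units. One array went against its label: the NOS 3′ UTR of the plant vectors read 154 to 705 units in the 8 transgenic pools, against 0.50 and −0.44 units in wild type replicates 1 and 2, but 52.3 units in the pool labelled wild type replicate 3. For members whose difference against wild type is given with an error, the value without that array is given too. Members are described below as log2 of quantile-normalized intensity with a floor at 0.93 log2 (1.90 intensity units). Bulk shoots cannot tell fewer cells of a type from less RNA per cell.

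Most members were dim. Of the 32 genes, 11 had a mean at or above 4.06 log2, the median of all values, where 49.6% of plant probe sets lay. On all 11 arrays 12 members exceeded the 95th percentile of that array's spike control probe sets, 9 did so on some arrays and 11 on none. Among all plant probe sets 51.2% exceeded it on every array. By family, 6 of 11 bZIP genes were above that level throughout, against 1 of 9 WRKY and 1 of 6 Aux/IAA genes. IAA20, IAA31 and BHLH92 were at the floor on every array, with intensities of at most 1.85 units, and so give no measurement of a difference. A further 10 members were at the floor on some arrays and 19 on none.

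**Figure D1:**
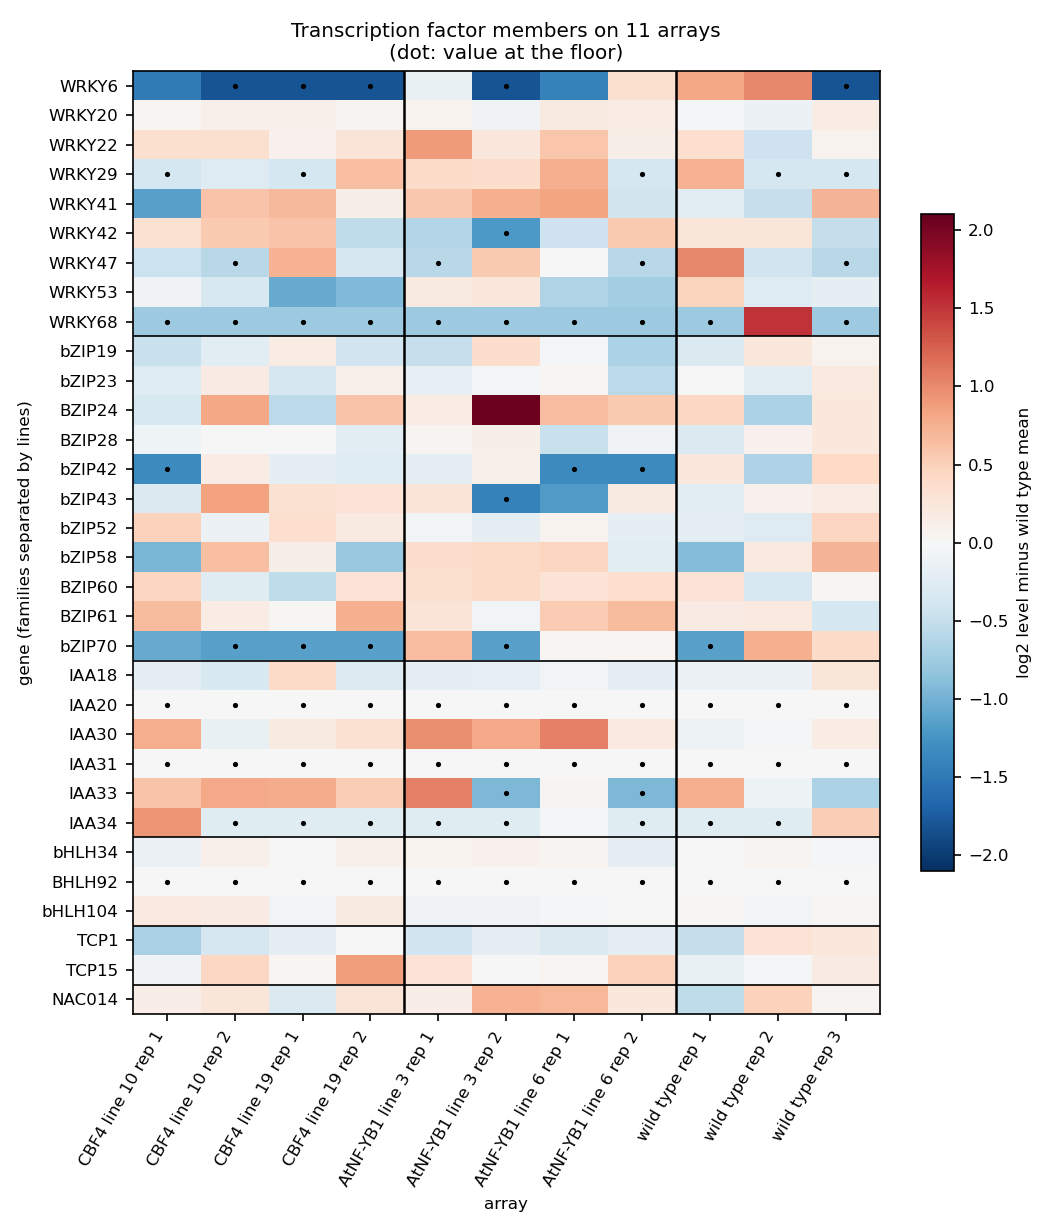
Level of each of the 32 members (rows, grouped by family) on each of the 11 arrays (columns), as log2 level minus the gene's wild type mean; a black dot marks a value at the floor of 0.93 log2. The deep colours lie in dim rows such as WRKY6, WRKY68 and bZIP70, where values reach the floor, while WRKY20, bHLH34 and bHLH104 are nearly colourless.

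The spread between arrays of the same line set what could be seen. Its standard deviation had a median of 0.28 log2 over the 11 brighter members, from 0.074 for bHLH104 to 0.41 for NAC014. Over the 18 dimmer members with any value above the floor the median was 0.64, and WRKY6 had the widest spread at 1.15. All plant probe sets in the same 2 classes had medians of 0.22 and 0.50. The steadiest members were bHLH104, WRKY20 at 0.095 and bHLH34 at 0.11.

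**Figure D2:**
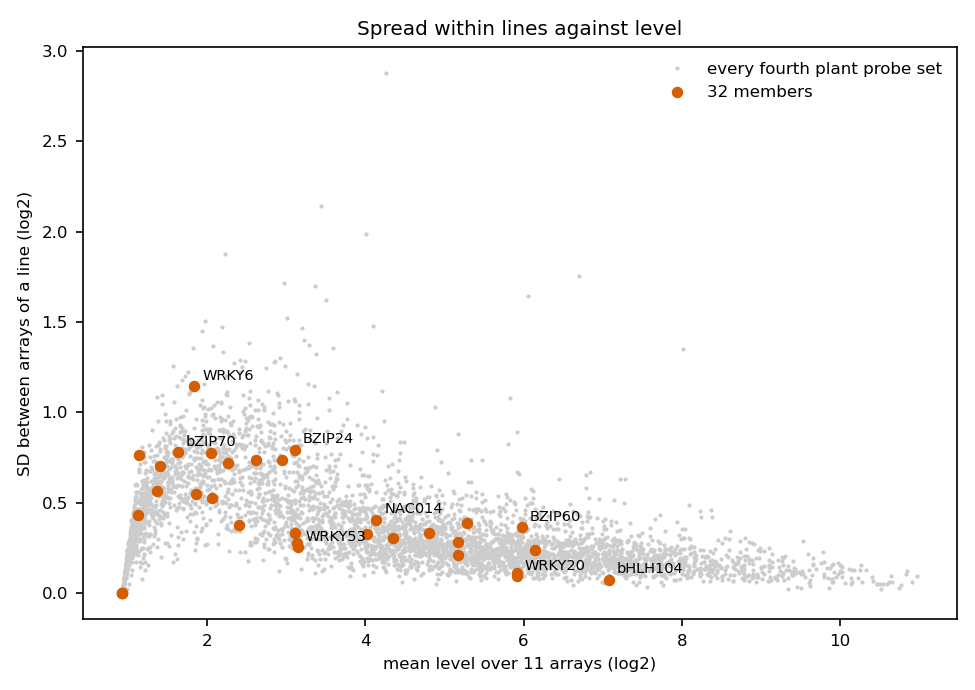
Standard deviation between arrays of the same line (log2, vertical) against mean level over 11 arrays (log2, horizontal) for the 32 members (orange) and an evenly drawn subset of plant probe sets (grey). The spread is widest between about 1 and 3 log2, where most WRKY and some Aux/IAA members lie, and the members fall within the grey cloud.

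Setting the CBF4 lines against wild type shows which shoot transcripts go with CBF4 overexpression. None of the members passed the test: 0 of 32 reached an adjusted p of 0.05 in limma, where 0.232% of plant probe sets did. An unadjusted p below 0.05 was reached by 1 member (WRKY53), against 6.14% of plant probe sets. With the array labelled wild type replicate 3 left out 0 members passed, where 0.155% of plant probe sets did, and 4 had an unadjusted p below 0.05, where 6.99% did. The 4 CBF4 arrays and the 3 wild type arrays were fully separated for 0 of 32 members, against 5.23% of plant probe sets. Of the 29 members with a value above the floor 15 were higher and 14 lower, with a median difference of 0.025 log2, where the median over all 19371 probe sets was 0. For all 11 brighter members the 95% interval of the difference lay within 1 log2 unit of 0, that is within a 2-fold change. The same held for 90.4% of plant probe sets of that brightness.

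Among the WRKY genes, WRKY53 (AT4G23810), a promoter of leaf senescence, stood furthest from wild type relative to its spread within lines. It read 3.37, 3.11, 2.38 and 2.53 log2 in CBF4 shoots (line 10 first, then line 19), against 3.92, 3.18 and 3.25 on the wild type arrays. The line 19 arrays lay below every wild type array, while line 10 overlapped with wild type. The difference was −0.60 ± 0.18 log2 (SE, 4 arrays against 3), a ratio of 0.659, with adjusted p = 0.571 and an unadjusted p of 0.0151. It was −0.37 without wild type replicate 1, the highest array, and −0.69 without the array labelled replicate 3. The error holds the spread between arrays of a line, not that between lines. With lines pooled the error was 0.35, and with line as a random block 0.31. In neither setting was the unadjusted p below 0.05. WRKY53 exceeded the spike control level on 4 of 11 arrays only.

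WRKY6 (AT1G62300), which represses the phosphate exporter gene PHO1 and takes part in senescence, had the most negative difference of any member. Its probe set is of the x_at kind, which by Affymetrix naming may also read related transcripts. The CBF4 arrays gave 1.27 log2 once and the floor 3 times, against 3.55 and 3.74 on wild type replicates 1 and 2 and the floor on the array labelled replicate 3. AtNF-YB1 line 3 replicate 2 was at the floor as well, so floor values occurred in all 3 groups. The difference was −1.72 ± 0.83 log2 (adjusted p = 0.896). Without the array labelled wild type replicate 3 it was −2.59 ± 0.62 (adjusted p = 0.343), and without wild type replicate 2 it was −1.23.

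The other WRKY genes gave no separation. WRKY20 (AT4G26640), a protein with a pair of WRKY domains, had 5.93 ± 0.037 log2 on the CBF4 arrays, 5.94 ± 0.12 on the AtNF-YB1 arrays and 5.85 ± 0.14 on the wild type arrays (SD, n = 4, 4 and 3). WRKY22 (AT4G01250) and WRKY29 (AT4G23550), which act downstream of the flagellin-triggered kinase cascade, had 3.11 ± 0.12 and 1.2 ± 0.49 in CBF4, 3.31 ± 0.35 and 1.58 ± 0.47 in AtNF-YB1, and 2.85 ± 0.40 and 1.29 ± 0.63 in wild type. WRKY42 (AT4G04450), a further repressor of PHO1, had 2.37 ± 0.52, 1.70 ± 0.73 and 2.13 ± 0.43 in the same order of groups. WRKY41 (AT4G11070), a factor of seed dormancy, had 2.49 ± 0.85, 2.87 ± 0.56 and 2.43 ± 0.64. In each of these genes the group means lay closer together than the larger of the standard deviations, apart from WRKY22 between AtNF-YB1 and wild type. WRKY47 (AT4G01720) was at the floor on 4 arrays. WRKY68 (AT3G62340) was at the floor on 10 arrays, the exception being wild type replicate 2 at 3.21 log2.

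The bZIP genes included both known routes of the endoplasmic reticulum stress response. BZIP28 (AT3G10800) encodes a membrane-anchored factor released by proteolysis, and BZIP60 (AT1G42990) one whose mRNA is spliced by IRE1. BZIP28 read 5.15, 5.24, 5.24 and 5.0 log2 in CBF4, 5.29, 5.36, 4.76 and 5.16 in AtNF-YB1, and 4.93, 5.33 and 5.46 in wild type. Its ranges overlapped throughout, with differences of −0.084 ± 0.15 in the CBF4 lines and −0.094 ± 0.15 in the AtNF-YB1 lines (adjusted p = 1 for both). Both signs turned when the array labelled wild type replicate 3 was left out (0.0265 and 0.0155), and under 2 other settings.

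BZIP60 read 6.31, 5.59, 5.33 and 6.15 log2 on the CBF4 arrays and 6.19, 6.26, 6.13 and 6.20 on the AtNF-YB1 arrays, against 6.15, 5.52 and 5.89 on the wild type arrays. The 4 AtNF-YB1 arrays lay close together, and the CBF4 arrays spread across the whole range. The difference from wild type was −0.0083 ± 0.26 in the CBF4 lines, a sign that turned in 5 of 22 alternatives, and 0.34 ± 0.26 in the AtNF-YB1 lines, with adjusted p = 1 for both and 95% intervals of −0.64 to 0.62 and −0.29 to 0.97. Leaving out the array labelled wild type replicate 3 gave 0.0092 and 0.36, and leaving out wild type replicate 2 gave −0.173 and 0.18.

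The zinc-deficiency factors bZIP19 (AT4G35040) and bZIP23 (AT2G16770) act together on zinc transporter genes, and neither separated the groups. bZIP19 had 5.20 ± 0.28 log2 in CBF4, 5.23 ± 0.46 in AtNF-YB1 and 5.44 ± 0.28 in wild type. bZIP23 had 5.18 ± 0.26, 5.08 ± 0.27 and 5.27 ± 0.21. Their relative BZIP24 (AT3G51960), linked to the salt response, was wider: 2.41, 3.56, 2.21 and 3.35 log2 on the CBF4 arrays, 2.91, 4.80, 3.40 and 3.31 in AtNF-YB1, and 3.19, 2.09 and 2.97 in wild type. Its difference of 0.85 ± 0.58 log2 in the AtNF-YB1 lines was the most positive of any member in that comparison (adjusted p = 1). AtNF-YB1 line 3 replicate 2, the array with the lowest median intensity, carried most of it: without that array the difference was 0.38. It was 1.33 without line 3 replicate 1, 0.53 without wild type replicate 2 and 0.95 without the array labelled wild type replicate 3.

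Of the remaining bZIP genes, BZIP61 (AT3G58120) was 0.40 ± 0.24 log2 above wild type in the CBF4 lines (adjusted p = 1), with 4.41, 3.91, 3.78 and 4.49 on the CBF4 arrays and 3.93, 3.95 and 3.38 on the wild type arrays. The difference was 0.22 without line 19 replicate 2 and 0.21 without the array labelled wild type replicate 3, its lowest. bZIP52 (AT1G06850) had 4.53 ± 0.26 log2 in CBF4, 4.21 ± 0.13 in AtNF-YB1 and 4.31 ± 0.39 in wild type. bZIP42 (AT3G30530), bZIP43 (AT5G38800), bZIP58 (AT1G13600) and bZIP70 (AT5G60830), small proteins of bZIP group S, never passed 3.66 log2. bZIP70 was at or near the floor on all CBF4 arrays, at 1.02 log2 and 3 floor values, where the AtNF-YB1 arrays read 2.72, 0.93, 2.12 and 2.11 and the wild type arrays 0.93, 2.82 and 2.48. The CBF4 arrays were the lowest group, but 1 array of each of the other groups was at the floor too. Its difference was −1.12 ± 0.57 from wild type (adjusted p = 0.918), and −1.02 ± 0.52 from the AtNF-YB1 lines (adjusted p = 0.747). The first was −1.71 without wild type replicate 1 and −0.91 without the array labelled replicate 3, and the second −0.57 without AtNF-YB1 line 3 replicate 1.

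IAA18 (AT1G51950), an auxin repressor of embryo and root patterning, was the one Aux/IAA gene read clearly on all arrays. It had 6.14 ± 0.34 log2 in CBF4, 6.08 ± 0.068 in AtNF-YB1 and 6.24 ± 0.21 in wild type, and the AtNF-YB1 difference of −0.16 ± 0.18 did not pass (adjusted p = 1). Leaving out the array labelled wild type replicate 3 took it to −0.034. The other 5 members, in which the degron that auxin acts on is absent or altered, were dim. IAA33 (AT5G57420) read 2.47, 2.67, 2.66 and 2.39 log2 on the CBF4 arrays, 2.93, 0.93, 1.93 and 0.93 in AtNF-YB1, and 2.64, 1.77 and 1.21 in wild type. The CBF4 arrays were even, 1 AtNF-YB1 array lay above all of them, and the other groups otherwise lay within their range or below it. IAA33 gave the most positive differences of the CBF4 lines, 0.67 ± 0.56 from wild type and 0.87 ± 0.52 from AtNF-YB1 (adjusted p = 1 and 0.823). The first was 1.07 without wild type replicate 1 and 0.34 without the array labelled replicate 3, and the second was 0.36 without AtNF-YB1 line 3 replicate 2 and 1.36 without line 3 replicate 1. IAA34 (AT1G15050) was at the floor on 8 arrays, and IAA20 (AT2G46990) and IAA31 (AT3G17600) on all.

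Among the bHLH genes, bHLH104 (AT4G14410) and bHLH34 (AT3G23210) belong to the group that switches on the iron-deficiency response. bHLH104 read 7.24, 7.22, 6.99 and 7.23 log2 on the CBF4 arrays, 6.98, 6.97, 7.02 and 7.03 in AtNF-YB1, and 7.08, 6.99 and 7.07 in wild type. Of the CBF4 arrays 3 lay above all others, and line 19 replicate 1 lay among the rest. The CBF4 difference was 0.13 ± 0.056 from wild type (adjusted p = 0.837). It was 0.070 without line 19 replicate 2 and 0.14 without the array labelled wild type replicate 3. Its sign turned on unscaled values. bHLH34 had 5.93 ± 0.11 log2 in CBF4, 5.91 ± 0.14 in AtNF-YB1 and 5.91 ± 0.051 in wild type. BHLH92 (AT5G43650), a gene linked to osmotic stress, was at the floor on all arrays.

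TCP15 (AT1G69690), a class I TCP factor of leaf growth, was 0.32 ± 0.24 log2 above wild type in the CBF4 lines (adjusted p = 1), at 4.53, 5.04, 4.65 and 5.48 on the CBF4 arrays against 4.46, 4.59 and 4.78 on the wild type arrays. That difference was 0.11 without line 19 replicate 2, 0.19 without line 10 replicate 2, 0.53 without line 19 replicate 1 and 0.40 without the array labelled wild type replicate 3. TCP1 (AT1G67260), of the other TCP class and linked to brassinosteroid synthesis, had 3.04 ± 0.29 log2 in CBF4, 3.07 ± 0.097 in AtNF-YB1 and 3.35 ± 0.43 in wild type. NAC014 (AT1G33060), a NAC protein predicted to be held at a membrane, had 4.03 ± 0.27, 4.39 ± 0.31 and 3.95 ± 0.51 in the same order, with wild type replicate 1 the lowest of all arrays at 3.41.

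Setting AtNF-YB1 shoots against wild type puts the same question to AtNF-YB1. Of the 32 members 0 passed in limma, where 0.0155% of plant probe sets did, and 1 member (IAA30) had an unadjusted p below 0.05, against 4.02% of plant probe sets. With the array labelled wild type replicate 3 left out 0 members passed, where 0.0516% of plant probe sets did, and 3 had an unadjusted p below 0.05, where 4.65% did. IAA30 was also the 1 member of 32 whose groups did not overlap, against 3.79% of plant probe sets. Of the 29 members with a value above the floor 12 were higher and 17 lower, and the median difference was −0.10 log2. Of the 17884 plant probe sets with such a value 8958 were higher and 8646 lower, with a median of 4e-04. Among the 11 brighter members 10 had a 95% interval within 1 log2 unit of 0, against 92.7% of plant probe sets of that brightness. The exception was NAC014 at 0.45 ± 0.30 (adjusted p = 1), with an interval of −0.26 to 1.15. It was 0.18 without wild type replicate 1, 0.69 without replicate 2, 0.47 without the array labelled replicate 3 and 0.30 without AtNF-YB1 line 3 replicate 2. Both comparisons use the same 3 wild type arrays, so their values are not independent.

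IAA30 (AT3G62100), a stable Aux/IAA protein of the same subgroup as IAA20 and IAA31, read 3.01, 2.83, 3.09 and 2.23 log2 in AtNF-YB1 shoots (line 3 first, then line 6), against 1.92, 1.99 and 2.18 on the wild type arrays. After quantile normalization all 4 AtNF-YB1 arrays lay above all 3 wild type arrays, by 0.89 log2 on the mean of line 3 and 0.63 on that of line 6. The difference was 0.76 ± 0.27 log2 (SE, 4 arrays against 3), a ratio of 1.69, with an unadjusted p of 0.0291 and adjusted p = 1. The CBF4 arrays read 2.79, 1.87, 2.22 and 2.36: the second lay below every wild type array, and the others above every wild type array. Its deposited intensities were 3.22 to 9.27 units, and it exceeded the spike control level on 1 of 11 arrays, so the difference lies near the background. It was 0.55 without AtNF-YB1 line 6 replicate 1, and 0.83 without the array labelled wild type replicate 3. On unscaled values it was 0.51 ± 0.42, and the unadjusted p was no longer below 0.05. The deposited intensities of the groups overlapped, at 8.99, 3.82, 9.27 and 4.53 units in AtNF-YB1 against 5.33, 3.22 and 4.72 in wild type.

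WRKY6 was the most negative member of this comparison too, at −0.77 ± 0.83 log2 (adjusted p = 1), with 2.58, 0.93, 1.32 and 3.07 on the AtNF-YB1 arrays against the wild type values given above. It was −0.26 without wild type replicate 2 and −1.65 without the array labelled replicate 3. WRKY20 was 0.087 ± 0.071 higher (adjusted p = 1, 95% interval −0.084 to 0.26), which had the opposite sign on unscaled values. It was 0.024 without wild type replicate 2, 0.051 without AtNF-YB1 line 3 replicate 1, and 0.16 without the array labelled wild type replicate 3, where the unadjusted p was below 0.05.

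**Figure D3:**
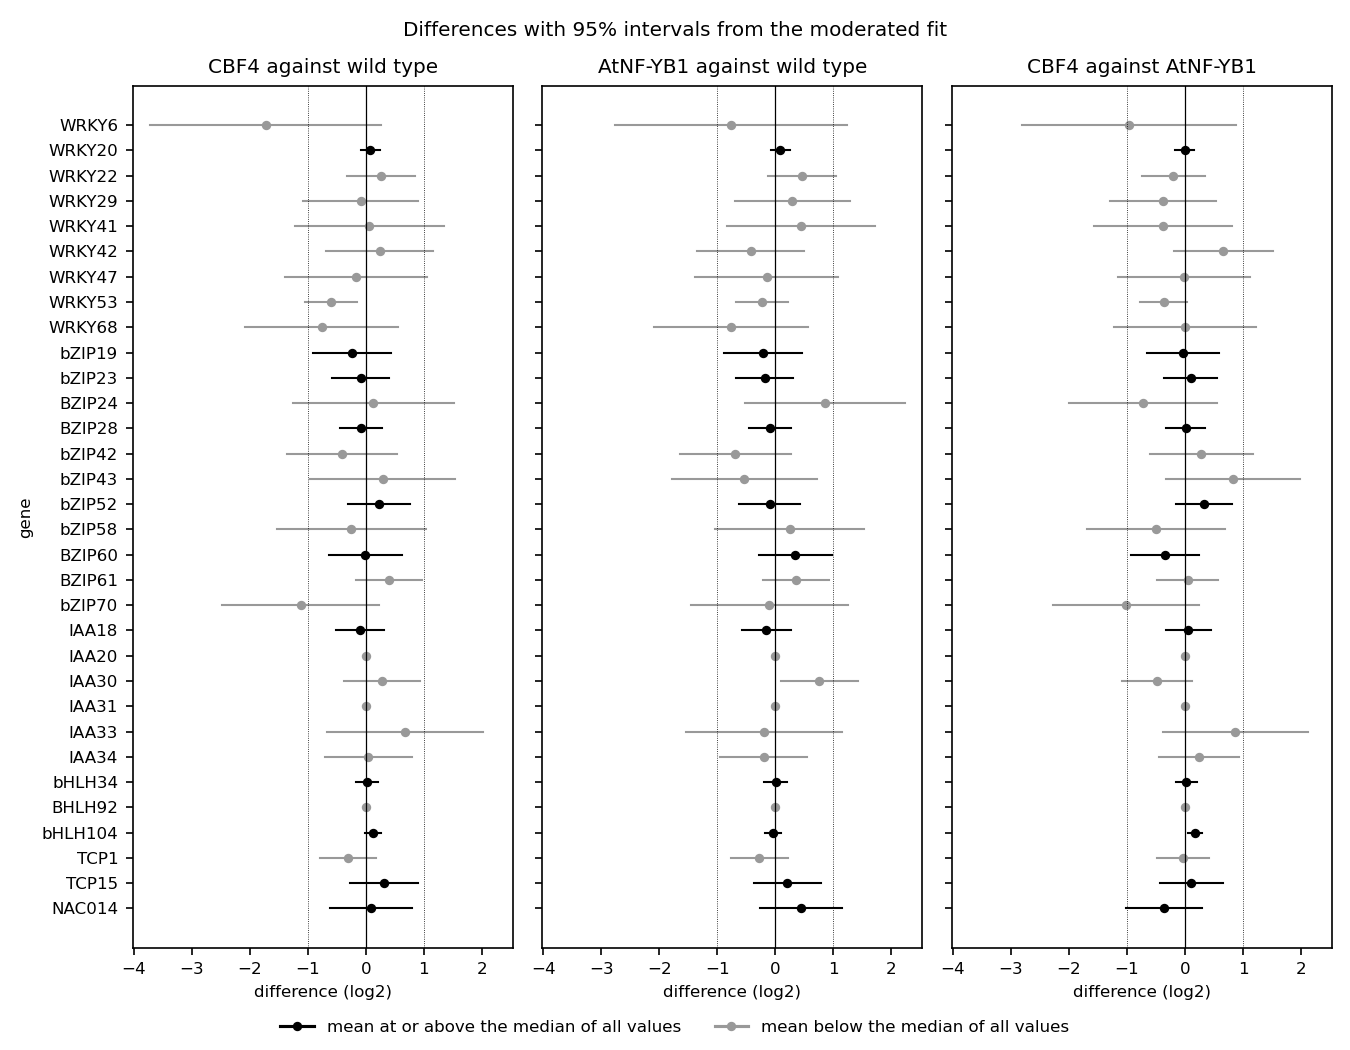
Difference of each of the 32 members (log2, horizontal) in 3 comparisons, with 95% intervals from the moderated fit; black marks members at or above the median of all values (11), grey those below it, and dotted lines stand 1 log2 unit from 0. Intervals of the black members are narrow and, apart from NAC014, lie inside the dotted lines, while those of WRKY6, bZIP70 and BZIP24 are over 2 log2 units wide.

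The comparison of the CBF4 lines with the AtNF-YB1 lines tests where the 2 constructs differ without using wild type as the baseline. Again 0 of 32 members passed in limma, where 0.310% of plant probe sets did, and 1 member (bHLH104) had an unadjusted p below 0.05, against 7.97% of plant probe sets. The 4 CBF4 and 4 AtNF-YB1 arrays were fully separated for 0 of 32 members, against 4.47% of plant probe sets. Of the 29 members 13 were higher, 15 lower and 1 equal, with a median of −0.0079 log2. Of the 17884 plant probe sets with a value above the floor 8696 were higher and 9027 lower, with a median of −0.0029. bHLH104 was 0.17 ± 0.052 log2 higher in the CBF4 lines (4 arrays against 4), a ratio of 1.13, with adjusted p = 0.416 and an unadjusted p of 0.014. Its adjusted p ran from 0.0508 to 1 over 22 alternatives. The lowest came without CBF4 line 19 replicate 1, at a difference of 0.23, and the difference was 0.11 without line 19 replicate 2. The unadjusted p stayed below 0.05 in 19 of 22 alternatives. It did not with arrays centred on their medians, where the difference was 0.074 (adjusted p = 0.945). Nor did it on unscaled values (0.21 ± 0.27) or with dim probe sets left out (0.17 ± 0.10, adjusted p = 0.68). The difference is small, and the spread of bHLH104 was the smallest of the 29 members.

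Independent lines carry the same transgene, so the differences between them give a yardstick for those above. Between AtNF-YB1 line 3 and line 6, 0 of 32 members passed in limma, where 0.0258% of plant probe sets did, and 2 members had an unadjusted p below 0.05, against 4.18% of plant probe sets. Between CBF4 line 10 and line 19, 0 passed, where 0.0155% of plant probe sets did, and 1 had an unadjusted p below 0.05, against 3.42%. With 2 arrays on each side, the lines did not overlap for 8 of 32 members in the first and 4 of 32 in the second comparison, against 26.9% and 20.5% of plant probe sets.

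WRKY53 was the member with the smallest p in both line comparisons. Its AtNF-YB1 line 3 arrays gave 3.64 and 3.69 log2, against 2.82 and 2.73 for line 6, a difference of 0.89 ± 0.24 (adjusted p = 0.943, unadjusted p of 0.00872). CBF4 line 10 exceeded line 19 by 0.79 ± 0.24 (adjusted p = 1, unadjusted p of 0.0153). In each construct 1 line lay near wild type: line 3 was 0.21 above its mean and line 10 0.21 below. The other line of each, line 6 at −0.68 and line 19 at −0.99, lay below every wild type array. The spread of WRKY53 between lines of a construct was thus wider than its mean difference between either construct and wild type.

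**Figure D4:**
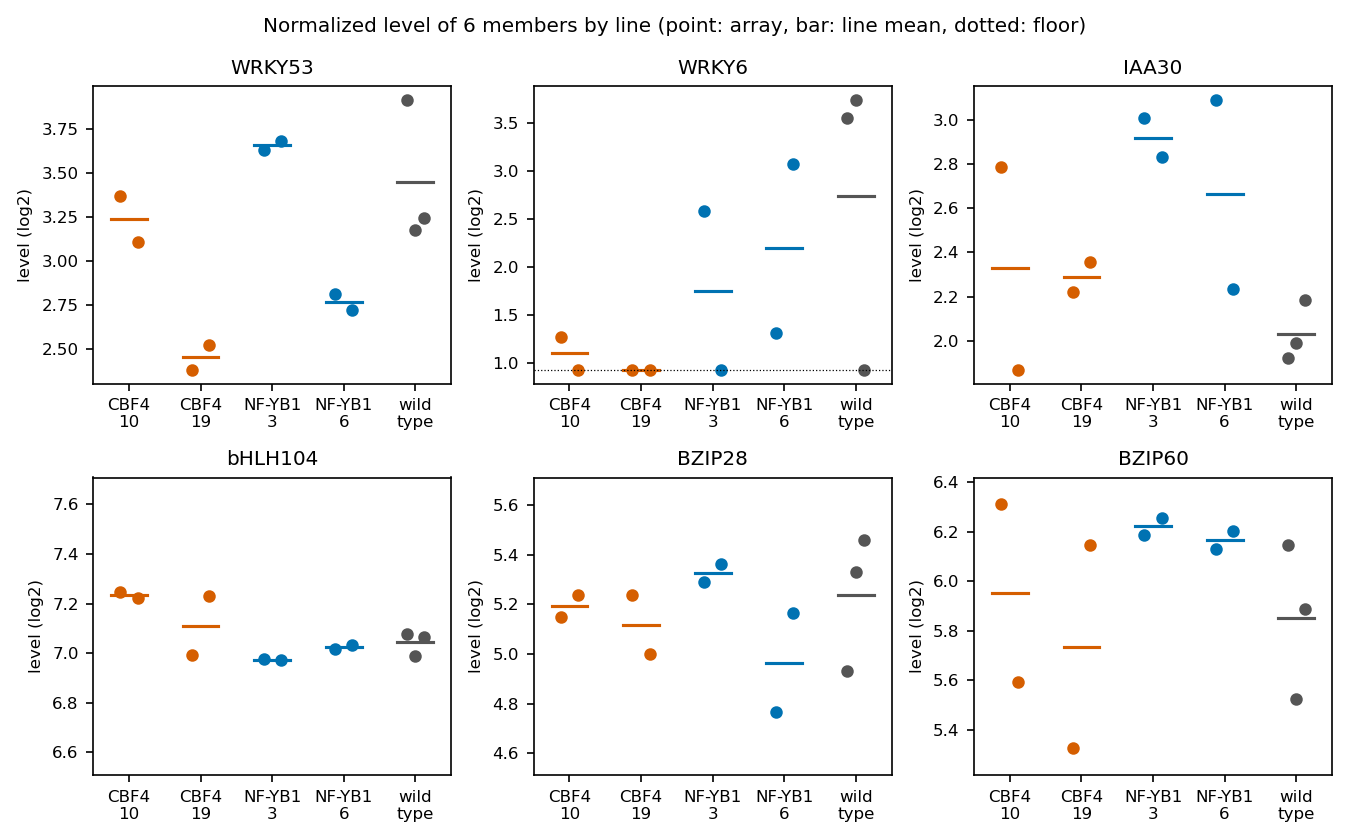
Normalized level (log2, vertical, each panel on its own scale) of WRKY53, WRKY6, IAA30, bHLH104, BZIP28 and BZIP60 by line (horizontal); points are arrays, bars line means, and the dotted line the floor. WRKY53 separates line 10 from line 19 and line 3 from line 6, IAA30 is lowest in wild type apart from 1 CBF4 array, and 1 of the 3 wild type points of WRKY6 is at the floor.

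The second member with an unadjusted p below 0.05 between AtNF-YB1 lines was bZIP42, at 2.06 and 2.36 log2 in line 3 and at the floor on both line 6 arrays (1.28 ± 0.52, adjusted p = 1, unadjusted p of 0.0461). It is dim on every array, with at most 7.64 intensity units. Among the brighter members, the smallest p between these lines belonged to WRKY20 at −0.18 ± 0.093 and BZIP28 at 0.36 ± 0.20 (adjusted p = 1 for both). Between the CBF4 lines they were bHLH104 at 0.12 ± 0.074 and IAA18 at −0.31 ± 0.23 (adjusted p = 1 for both). The IAA18 value rested on CBF4 line 19 replicate 1 at 6.63 log2, without which it was 0.038, and was −0.65 without replicate 2 of that line. The bHLH104 value was 0.0056 and 0.24 in these settings. BZIP28 was 0.16 without line 6 replicate 1 and 0.56 without line 6 replicate 2, and WRKY20 −0.11 without line 3 replicate 2.

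Regulators tied to the transgenes themselves were hardly readable by name. Of the factors linked to CBF signalling in the cold 0 were measured under a gene name, and of the NF-Y subunits 0. Only 11598 of 19371 plant probe sets carried such a name. Of the upstream regulators of CBF genes 1 was measured, PIF7, a phytochrome-interacting factor that represses CBF genes in long days. PIF7 averaged 3.18 log2 in CBF4, 3.62 in AtNF-YB1 and 3.51 in wild type, with differences from wild type of −0.33 ± 0.54 and 0.11 ± 0.54 and adjusted p = 1 for both. The members lay on all chromosomes, 9 on chromosome 1, 2 on chromosome 2, 8 on chromosome 3, 9 on chromosome 4 and 4 on chromosome 5.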

How the data were processed

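Transcript levels were measured on 11 custom Affymetrix arrays, 1 per seedling pool. The deposited intensity values, 1 per probe set, are linear and partly below 0. For summarization and scaling, the method is not given in the sources used here. In all, the table held 19371 plant probe sets and 3 vector probe sets, which were used together (19374), and 122 Affymetrix and 162 spike controls, which were left out of normalization and testing. Intensities were quantile normalized, raised to a floor at their 20th percentile and log2 transformed, as array medians differed.

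Differences were tested with limma 3.58.1 (statmod 1.5.0, R 4.3.3; lmFit and eBayes, two-sided) in 1 fit of 5 line groups with 6 residual degrees of freedom; a construct is the mean of its 2 lines. Adjusted p-values are Benjamini-Hochberg over 19374 probe sets, with a threshold of 0.05. Errors of differences are moderated standard errors. In this fit they rest on the spread between arrays of the same line, not on that between lines. The spike control level, the 95th percentile of those probe sets on each array, was chosen after the data were seen. The series text calls the replicates biological, and nothing names separate growth batches, so the tests see no more than the spread among these pools.

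Symbols come from the platform annotation, matched by gene ID to RefSeq (TAIR10.1); its genome build is not stated, and positions are left out. Members and lists were chosen with earlier results of these data known. The rule for named genes took members that passed, separated bright members, the bright member with the smallest p in each family and the 2 with the smallest p in each line comparison; the first 2 parts named none. WRKY53, WRKY6, IAA30, IAA33, BZIP24, BZIP28, BZIP60, bZIP42 and bZIP70 were singled out, in some comparisons or all, after their values were seen. The alternatives were 2 other scalings, 2 other floors, leaving out dim probe sets, a replicate block, pooled lines, line as a random block, 3 other variance or weight models and leaving out each array. Averaging probe sets of a gene had no effect to test, since each member had 1. The procedure was tested on simulated data. Figures were drawn with matplotlib 3.10.9 in Python 3.11.15.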

Additional observations from a re-analysis of the deposited data

Results flagged for a closer look

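In 3 of 41 sets of the 4 arrays of a construct (members with a value above the floor on all 4), 1 array lay far from the other 3 by Dixon's ratio, which chance does in about 1 of 20 sets. For bHLH104 this was CBF4 line 19 replicate 1 at 6.99 log2, with the nearest CBF4 array at 7.22. For bHLH34 it was AtNF-YB1 line 6 replicate 2 at 5.71, with the nearest AtNF-YB1 array at 5.96. For bZIP58 it was the same array at 2.72, with the nearest at 3.32.

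The NOS 3′ UTR probe set, which no comparison of the members uses, gave at least 153.6 intensity units on every transgenic array, against 0.50 and −0.44 for wild type replicates 1 and 2. In the third pool labelled wild type it read 52.3 units, and the E9 3′ UTR probe set 1164 units, where the CBF4 arrays had 504 to 591, the AtNF-YB1 arrays 2.195 to 112, and wild type replicates 1 and 2 137 and 88.3.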

How the results depend on the processing

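In each of the 5 comparisons the count of members passing was 0 under every alternative run, 22 for the comparisons of constructs and 20 for those of lines. The lowest adjusted p of any member was 0.0508, and at most 4 of 32 members had an unadjusted p below 0.05. For CBF4 against wild type 4 did so with the replicate block, where 1345 of 19371 plant probe sets did. Without CBF4 line 19 replicate 1 it was 4 members and 1201 plant probe sets. For CBF4 against AtNF-YB1 with line as a random block it was 4 and 2184. Over all plant probe sets the count passing for CBF4 against wild type ran from 5 to 149. Of the 27 differences named, none passed in any of 562 alternative values, and 6 turned sign in at least 1 alternative, 15 values in all. On unscaled values bHLH104 in CBF4 against wild type was −0.040 and WRKY20 in AtNF-YB1 against wild type −0.13. BZIP28 in CBF4 against wild type was 0.026 with the replicate block, 0.015 with array weights and 0.0265 without wild type replicate 3. BZIP28 in AtNF-YB1 against wild type was 0.0159, 0.0052 and 0.0155 in these settings and 0.0062 without AtNF-YB1 line 6 replicate 1. BZIP60 in CBF4 against wild type was 0.0096 with the replicate block and 0.17, 0.197, 0.139 and 0.0092 without CBF4 line 10 replicate 2, line 19 replicate 1 and wild type replicates 1 and 3. IAA18 between the CBF4 lines was 0.038 without line 19 replicate 1. With single arrays left out, these differences reached −0.238 and −0.248 for BZIP28 in CBF4 and AtNF-YB1, −0.213 for BZIP60 and −0.648 for IAA18. The cause was not tested. A floor at the 40th percentile took WRKY53 in CBF4 against wild type to −0.20 and WRKY6 to −0.28, and put IAA30, bZIP42, bZIP70 and IAA33 at the floor on all arrays compared.

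The replicate number as a block left 0 members passing in each comparison, and 13 plant probe sets for CBF4 against wild type where the fit without it had 45. Deviations of same-numbered arrays correlated at −0.476 to 0.412, over 0.1 in 3 of 10 pairs of groups, and 5 of 10 arrays correlated best with their own number, so the numbers were not taken to pair the arrays. Signal near background limits the 11 members that exceeded the spike control level on no array.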
